A study of Homo sapiens with 8 samples.

Results

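The genes that make, control and move cholesterol were followed in DLD-1 cells, a line of human colorectal adenocarcinoma cells, after transfection with a miR-143 duplex. The genes were taken from a list of 29 names, and each was represented by its brightest probe set among those annotated to that gene only. Of the 29 genes 27 could be measured, against 19752 genes on the array as a whole. These were 17 of 19 genes of synthesis, 5 of 5 genes of SREBP control and 5 of 5 genes of uptake and transport. The 2 probe sets of CYP51A1, the lanosterol demethylase, are each annotated to a second gene as well, and no probe set used here was annotated to FDFT1, the squalene synthase. The list does not hold the complete pathway.

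A 50 nM dose of the miR-143 duplex was given to 4 cultures and 4 others were mock transfected, with Lipofectamine as the reagent, and RNA was taken 24 h later. All 8 cultures, biological replicates by the study's methods, were DLD-1 cells grown in the same medium, and each was measured on its own Affymetrix HG-U133 Plus 2.0 array. The sources name no duplex for the mock cultures of the arrays, so an effect of the miR-143 sequence and an effect of any duplex cannot be told apart. Each value comes from the total RNA of a culture, and fewer cells with a transcript cannot be told apart from less transcript per cell.

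Cholesterol is built from acetyl-CoA through mevalonate, the isoprenoid diphosphates, squalene and lanosterol, and most enzymes of this route sit in or near the endoplasmic reticulum. When sterols in that membrane are low, SCAP carries the SREBP transcription factors to the Golgi, where they are cut and released to the nucleus, and INSIG proteins hold SCAP back when sterols are plentiful. SREBP then raises many genes of synthesis and uptake together, so these genes often move as a group. Cholesterol that arrives in lysosomes leaves through NPC2 and NPC1, is carried between membranes by proteins such as STARD4, is stored as esters made by SOAT1 and leaves the cell through ABCA1.

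The transfected agent mimics mature miR-143. The natural strands are shown because pairing of the seed, bases 2 to 8 of the mature strand, is how a microRNA finds its messages. The study prints no strand sequences for the duplex, so its second strand is not known here. The sequences are those of RefSeq (GRCh38.p14), where the guide strand hsa-miR-143-3p lies at chr5:149428978-149428998 and the other arm, hsa-miR-143-5p, at chr5:149428944-149428965, both on the plus strand. The seed is in capitals.
hsa-miR-143-3p: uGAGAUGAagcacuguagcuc
hsa-miR-143-5p: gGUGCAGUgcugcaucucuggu
A message pairs with the 3p seed through the letters TCATCTC. No message sequence was searched for them here.

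The arrays differed in ways that the groups do not explain. Both replicate 4 arrays stood apart from the rest: the axis of greatest variance (67.0% of it) placed that of miR-143 at 25.7 and that of mock at 26.7, and the other arrays at −18.8 to −4.25. The log2 values of the replicate 4 arrays also spread more widely over the probe sets, with standard deviations of 1.49 and 1.51 against 1.34 to 1.41. Both groups carry replicate numbers 1 to 4, and the comparison was made by limma without pairs and, as an alternative, with the number as a pair. Without pairs limma called 0 of 19752 genes at an adjusted p of 0.05, and 2.41% of genes had an unadjusted p under 0.05. With pairs limma called 123 genes lower, or 0.623%, and 33 higher, or 0.167%, which makes 0.79% in either direction. The epithelial markers EPCAM, KRT8, KRT18, KRT19 and CDH1 averaged 11.3 or more on the log2 scale in both groups, CDX2 had means of 8.29 and 8.32 and LGALS4 had means of 7.11 and 7.14, near the array medians of 7.15 to 7.24. The leukocyte, endothelial, hepatocyte and fibroblast markers PTPRC, PECAM1, ALB, COL3A1 and COL1A1 averaged 6.65 to 8.15, and none of these 12 markers passed limma with or without pairs.

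STARD4, the cytosolic carrier that ferries cholesterol between membranes, was the member that stood out, and it lay lower in every miR-143 array. Its log2 values were 9.08, 9.12, 8.99 and 9.27 in miR-143 replicates 1 to 4, and 9.70, 9.62, 9.48 and 9.88 in mock replicates 1 to 4. The highest miR-143 array lay below the lowest mock array, an arrangement found for 1.24% of all genes. The miR-143 arrays averaged 9.12 ± 0.12 (SD, n = 4), and the mock arrays 9.67 ± 0.17 (SD, n = 4). The log2 fold change was thus −0.55 (standard error 0.094), which leaves 68.3% of the mock level. The differences within the 4 pairs were −0.62, −0.49, −0.49 and −0.61, so their spread (SD 0.070) was small beside their size. STARD4 was called lower in the paired comparison (adjusted p = 5.66e-04 from limma with pairs), and it did not pass without pairs (adjusted p = 0.198 from limma). The pairs are by replicate number only, and neither labels nor methods say that same-numbered cultures belong together. Without pairs it passed in limma after cyclic loess (adjusted p = 0.00146), after quantile normalization (0.00146) and with array weights (0.00442). With any single array left out, still without pairs, it did not pass (adjusted p = 0.15 to 0.79 from limma). An exact permutation test over the 70 splits of the arrays gave a two-sided p of 0.0286, the smallest that 4 against 4 arrays allow. The call with pairs held with each pair left out in turn (adjusted p = 0.00339 to 0.00778 from limma with pairs). Among all genes STARD4 had the 11th lowest log2 fold change.

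None of the other 26 members passed limma with or without pairs. Of these 17 had a negative and 9 a positive log2 fold change, a share of 65.4% negative beside 55.6% of all genes and 64.3% of genes above the median level, where 16 synthesis, 5 control and 4 transport members lie. Their 95% intervals with pairs reached from −0.37 to 0.28, or from 77.4% to 121% of the mock level, and without pairs from −0.47 to 0.40. At an unadjusted p under 0.05 limma had 2 of the 27 members without pairs, STARD4 and HSD17B7, and 3 with pairs, where IDI1 joined them, beside 2.41% and 9.55% of all genes. All 4 pair differences were negative in 6 of the 27 members and positive in 1, beside 10.9% and 6.54% of all genes. Of the 9876 genes above the median level, 1525 had all 4 negative and 559 all 4 positive. At an unadjusted p under 0.05 limma had 299 of them lower and 104 higher without pairs, and 1228 lower and 347 higher with pairs.

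**Figure D1:**
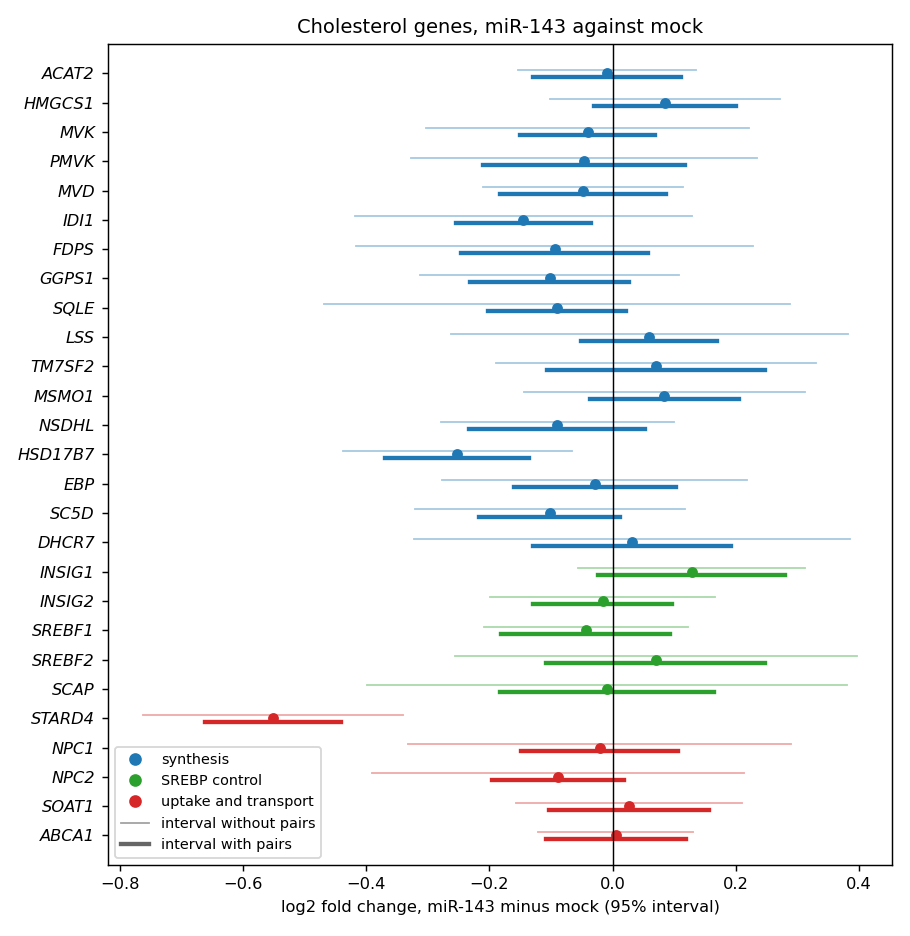
Change from mock to miR-143, in log2, of the 27 cholesterol genes that could be measured, in the order of the pathway and coloured by role, with points for the estimates, thin bars for 95% intervals without pairs and thick bars for 95% intervals with pairs. STARD4 lies at −0.55 and HSD17B7 at −0.25, and the other 25 genes lie between −0.14 and 0.13.

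The early enzymes of synthesis, which lead from acetyl-CoA to the isoprenoid diphosphates, lay close to their mock levels. ACAT2, which joins acetyl-CoA units, had group means of 11.34 ± 0.04 (SD, n = 4) and 11.35 ± 0.10 (SD, n = 4), the miR-143 group first. HMGCS1, the HMG-CoA synthase and a standard reporter of SREBP activity, had log2 values of 10.44 to 10.66 with miR-143 and 10.27 to 10.63 in mock. Its log2 fold change was 0.08 (95% interval −0.10 to 0.27 without pairs and −0.03 to 0.20 with pairs). The mevalonate kinase MVK had a log2 fold change of −0.04. The phosphomevalonate kinase PMVK had −0.05, and the decarboxylase MVD had −0.05. MVD averaged 6.99 ± 0.13 (SD, n = 4) and 7.04 ± 0.05 (SD, n = 4), below the array medians, and the values carry no detection call to say whether that is above background.

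IDI1, the isomerase that makes the second isoprenoid building block, had log2 values of 11.54, 11.62, 11.44 and 11.89 with miR-143 and of 11.73, 11.66, 11.60 and 12.07 in mock. The groups overlapped and replicate 4 was the highest array of each, but each miR-143 array lay below the mock array of its own number, by 0.19, 0.05, 0.16 and 0.18. The log2 fold change was −0.14 (standard error 0.050 with pairs and 0.122 without), and it did not pass (adjusted p = 0.337 from limma with pairs and 0.9999 without). It was −0.044 without mock replicate 4 and −0.23 without miR-143 replicate 4. The other probe sets of IDI1 had −0.05, −0.07 and 0.04. FDPS, which makes farnesyl diphosphate, had a log2 fold change of −0.09 with pair differences of both signs, from −0.33 to 0.15. GGPS1, which extends farnesyl to geranylgeranyl diphosphate for the anchoring of small GTPases, had −0.10. Its 95% interval was −0.31 to 0.11 without pairs and −0.23 to 0.03 with pairs.

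From squalene onwards HSD17B7 was the member that lay furthest from mock. HSD17B7, the reductase that acts on the keto sterols left after the methyl groups are removed, had log2 values of 10.33, 10.42, 10.27 and 10.52 with miR-143 and of 10.56, 10.54, 10.60 and 10.84 in mock. Its 4 miR-143 arrays all lay below the 4 mock arrays, though the gap between 10.52 and 10.54 was narrow. The means were 10.38 ± 0.11 (SD, n = 4) and 10.64 ± 0.14 (SD, n = 4), the log2 fold change was −0.25 (standard error 0.083), and the miR-143 level was 84.0% of mock. It did not pass in either comparison (adjusted p = 0.9999 from limma without pairs and 0.0608 with pairs), and the exact permutation test gave p = 0.0286, two-sided. HSD17B7 is read by a single probe set of the x type, whose probes can also match related transcripts. The probe sets used for IDI1 and for ICMT, named below, are of this type too. The pseudogene HSD17B7P2, which has a probe set of its own, had 7.01 ± 0.13 (SD, n = 4) and 6.99 ± 0.24 (SD, n = 4), with a log2 fold change of 0.02. Both means lie below the array medians, and no detection call says whether they are above background. What the probes of HSD17B7 bind was not tested.

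**Figure D2:**
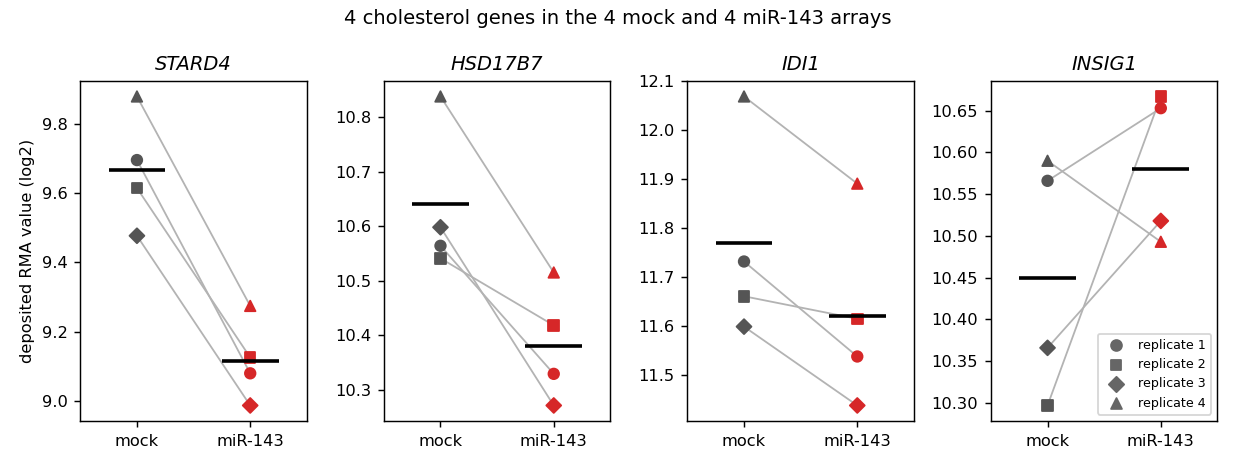
Deposited log2 values of STARD4, HSD17B7, IDI1 and INSIG1 in the 4 mock (grey) and 4 miR-143 (red) arrays, with a line joining arrays of the same replicate number, a symbol for each number and a black bar for the group mean. Each panel has its own vertical axis, which does not start at 0. In STARD4 all 4 lines fall by 0.49 to 0.62, in HSD17B7 by 0.12 to 0.33, and in INSIG1 3 lines rise and 1 falls.

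The remaining enzymes of the sterol steps lay on both sides of 0. SQLE, the squalene epoxidase and a rate-limiting step of the route, had a log2 fold change of −0.09 with values of 10.12 to 10.78 in miR-143 and 10.14 to 10.80 in mock. LSS, which closes squalene epoxide to lanosterol, had 0.06, and its 4 pair differences were all positive, from 0.002 to 0.14. MSMO1, which oxidises the methyl groups, had 0.08, and NSDHL, which works in the same step, had −0.09. The sterol reductase TM7SF2 had 0.07, the isomerase EBP had −0.03 and the desaturase SC5D had −0.10. DHCR7, the reductase that yields cholesterol itself, had 0.03 (95% interval −0.32 to 0.39 without pairs and −0.13 to 0.19 with pairs). Over the 17 enzymes of synthesis 12 were negative, with a median of −0.046 beside −0.0091 over all genes and −0.030 over genes above the median level. That median was −0.020 after cyclic loess, −0.018 after quantile normalization and 0.017 without mock replicate 4, where 7 of 17 enzymes were negative. It was −0.11 without miR-143 replicate 4, where 14 of 17 were.

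The genes of SREBP control did not move together, and INSIG1 was the member with the lowest p among them. INSIG1, which holds SCAP in the endoplasmic reticulum and is itself an SREBP target, had log2 values of 10.65, 10.67, 10.52 and 10.49 with miR-143 and of 10.57, 10.30, 10.37 and 10.59 in mock. The groups overlapped, with 3 pairs higher and pair 4 lower in the miR-143 array. Its log2 fold change was 0.13 (standard error 0.082, 95% interval without pairs −0.06 to 0.31), and it did not pass (adjusted p = 0.9999 from limma without pairs and 0.607 with pairs). Without mock replicate 2 it was 0.075, and with pairs left out in turn it ran from 0.047 to 0.20. INSIG1 has 2 other probe sets, with log2 fold changes of 0.12 and 0.03. With every probe set tested, the first had an unadjusted p of 0.0336 and an adjusted p of 0.501 from limma with pairs. INSIG2, its paralogue, averaged 8.74 ± 0.10 (SD, n = 4) and 8.75 ± 0.13 (SD, n = 4).

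The transcription factors and their escort were also close to mock. SREBF2, which encodes the SREBP that favours cholesterol genes, had a log2 fold change of 0.07, with miR-143 values of 7.80 to 8.56 that enclosed the mock values of 7.93 to 8.23. SREBF1, whose products favour fatty acid genes, had −0.04. SCAP had −0.01 (95% interval without pairs −0.40 to 0.38), and its pair differences ran from −0.31 to 0.22. The median of the 5 control genes was −0.0090, and it turned positive after cyclic loess (0.013), after quantile normalization (0.0091) and without mock replicate 4 (0.098). It was −0.068 without miR-143 replicate 4, where 4 of 5 were negative.

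Among the genes of uptake and transport other than STARD4 the log2 fold changes ran from −0.09 to 0.03. NPC1, the lysosomal membrane protein that exports cholesterol, had −0.02, with values of 8.43 to 9.06 with miR-143 and 8.52 to 8.94 in mock. NPC2, the soluble lysosomal protein that hands cholesterol to NPC1, had −0.09 with all 4 pair differences negative, from −0.12 to −0.01. SOAT1, which esterifies cholesterol for storage, had 0.03, and ABCA1, the pump that sends cholesterol to lipid-poor particles outside the cell, had 0.01. ABCA1 averaged 6.85 ± 0.06 (SD, n = 4) and 6.85 ± 0.05 (SD, n = 4), below the array medians, as did its 3 other probe sets. Those had log2 fold changes of 0.09, 0.06 and 0.04. In the first, all miR-143 arrays lay above the mock arrays, as in 0.719% of all genes by their brightest probe set. Its unadjusted p was 0.114 from limma without pairs. The median over the 4 genes without STARD4 was −0.0079. Their 95% intervals lay between −0.39 and 0.29 without pairs and between −0.20 and 0.16 with pairs. With STARD4 the median of the 5 genes was −0.021, and 0.0012 after cyclic loess. It was −0.15 without miR-143 replicate 4 and −0.084 without mock replicate 3.

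The replicate 4 arrays stood apart in the members as well. Replicate 4 was the highest array of both groups in 20 of the 27 members, beside 36.1% of all genes and 63.0% of genes above the median level. It was so in 14 of 17 genes of synthesis, in 3 of 5 control genes and in 3 of 5 transport genes. The median member lay 0.22 higher in miR-143 replicate 4 than in the mean of the other miR-143 arrays, and 0.25 higher in mock replicate 4 than in the other mock arrays. SQLE had the widest such gaps of the synthesis genes, at 0.59 and 0.50, and LSS had 0.50 and 0.45. MVK and SOAT1 ran the other way and were lowest in replicate 4 of both groups, and the log2 differences of MVK were −0.39 and −0.29. After quantile normalization or cyclic loess between the arrays, replicate 4 was highest in both groups in 7 of 27 members, beside 20.9% and 21.3% of all genes. SQLE, LSS, DHCR7, MVD, SCAP and NPC2 were among the 7 under both. What set replicate 4 apart was not tested.

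**Figure D3:**
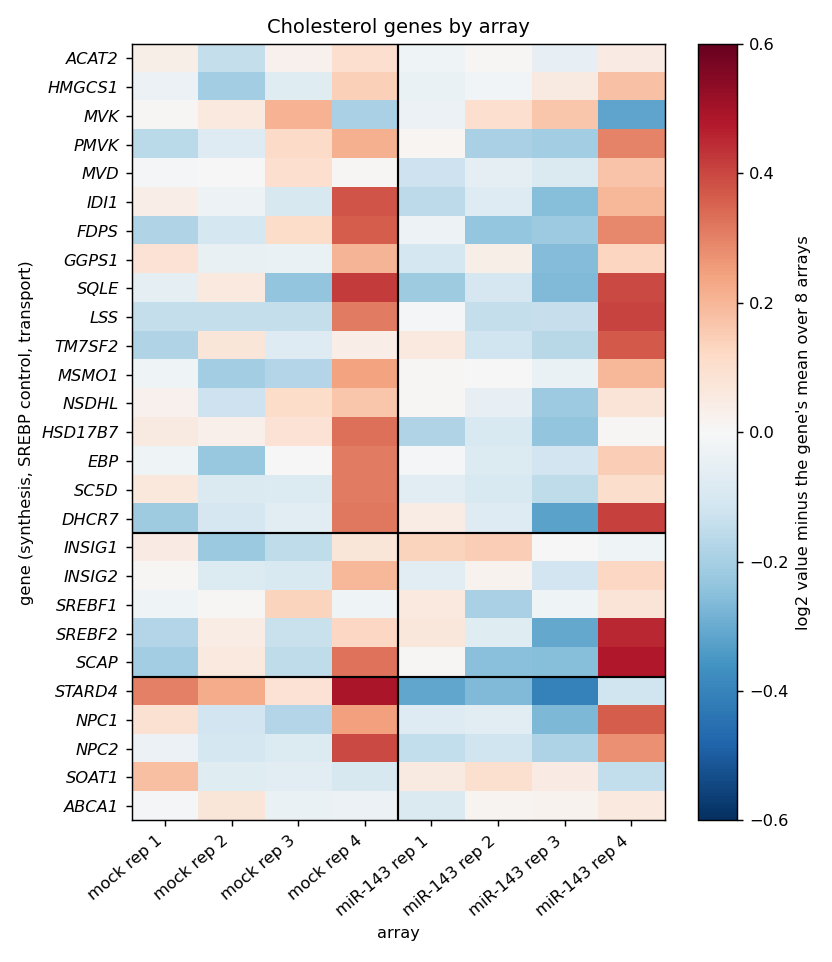
Values of the 27 measured cholesterol genes in each of the 8 arrays, as the log2 value minus that gene's mean over the 8 arrays, with mock arrays on the left, miR-143 arrays on the right and lines between the roles. The columns of replicate 4 are red in most rows of both groups, as 20 of 27 genes were highest there, while the row of STARD4 changes from red in mock to blue in miR-143.

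The choice of probe set mattered for some members. The 27 genes had 59 probe sets of their own, and 11 genes, STARD4 and HSD17B7 among them, had a single one, so no second probe set bears on either value. Of the 16 genes with more than 1, all probe sets shared a sign in 8. When every probe set was tested on its own, that of STARD4 was the 1 of 59 called by limma with pairs. Of all 41091 single-gene probe sets, 171 were called lower and 45 higher with pairs, and 1 lower without. Without pairs 0 of 59 were called, and 2 had an unadjusted p under 0.05. With pairs the probe sets used for STARD4, HSD17B7 and IDI1 and 1 other of INSIG1 were under it. By the brightest probe set 2.41% of all genes were under it without pairs and 9.55% with pairs. The probe sets of IDI1 lay furthest apart, from −0.14 to 0.04, and those of SREBF2 had log2 fold changes of 0.07, 0.03 and −0.09.

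The promoters of the members were searched for letters that SREBP and its partners are known to use, as a description of what the genes share. RefSeq promoters (GRCh38.p14, 250 bases before to 50 after a gene's start) were found for 26 of the 29 genes, as 35 promoters, and ACAT2, FDFT1 and SQLE had none. All motifs were read on both strands, and among them TCACNCCAC takes in every TCACCCCAC. The CCAAT letters, the box of NF-Y, a factor that works with SREBP, stood in 21 of the 35 promoters (60.0%) and in 16 of the 23 of synthesis genes (69.6%), beside 34.6% of 35116 promoters of all genes. The GC box letters CCGCCC stood in 32 of 35 (91.4%), beside 45.0% of all promoters and 56.7% of those of measured genes, and CACGTG in 6 of 35 (17.1%), beside 7.26%. TCACCCCAC, the core letters of the sterol element, stood in 1 of 35 promoters (2.86%), beside 0.43%, and TCACNCCAC in the same 1 of 35, beside 1.13%.

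The single sterol element core lay in the promoter of SREBF2 before the gene's start, at chr22:41832962-41832990 on the plus strand. It is shown with those of STARD4 and HSD17B7, the members that lay furthest from mock, which had CCAAT letters and no sterol element core in this window. The STARD4 stretches lie 161 and 130 bases before its start at chr5:111512680-111512708 and chr5:111512649-111512677, on the minus strand like the gene. Those of HSD17B7 lie 52 bases before and 8 bases after its start at chr1:162790638-162790666 and chr1:162790698-162790726, on the plus strand, and hold the letters in reverse, as ATTGG. Capitals mark the motif.
SREBF2: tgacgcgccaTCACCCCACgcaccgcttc
STARD4, first: atttatcggccaCCAATcagccctccaca
STARD4, second: ctcccgcgccagCCAATccgaacaagcgc
HSD17B7, first: tggcggactgagATTGGagggatcagctc
HSD17B7, second: ggccgtactctgATTGGtgacgggtgagg
A match is a description of letters and not of binding, and no match says only that the letters are not in the window.

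The neighbouring lipid genes were listed by role, and limma called 0 of them with or without pairs. At an unadjusted p under 0.05, 1 of these 23 sterol, 14 fatty acid and 12 isoprenoid genes passed without pairs and 8 with pairs. The shares over all genes were 2.41% and 9.55%. These lists had median levels of 8.90, 9.47 and 10.03, beside 7.56 over all genes. Of the 9876 genes above the median level, limma with pairs had 1228 lower and 347 higher at this p. Among the 8 genes, 4 were lower genes of the isoprenoid branch. Among 23 other sterol genes 12 had a negative and 11 a positive log2 fold change, with a median of −0.00013. MYLIP, the ubiquitin ligase that marks lipoprotein receptors for destruction and is raised by sterol-sensing LXR, had log2 values of 10.20, 10.04, 9.96 and 9.95 with miR-143 and of 9.91, 9.70, 9.85 and 9.74 in mock. All its miR-143 arrays lay above the mock arrays, as in 0.719% of all genes. The log2 fold change was 0.24 (standard error 0.076, adjusted p = 0.9999 from limma without pairs and 0.0802 with pairs), and it passed under the setting of cyclic loess together with pairs (adjusted p = 0.0268 from limma).

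MBTPS2 and SOAT2 had the next lowest p without pairs, and they also missed the threshold. MBTPS2, the protease that makes the second cut of SREBP, averaged 10.14 ± 0.20 (SD, n = 4) after miR-143 against a mock mean of 10.35 ± 0.21 (SD, n = 4), and its difference of −0.21 had an adjusted p of 0.167 by the paired limma comparison. The difference was −0.056 over the mean of its 3 probe sets and −0.12 without mock replicate 4. TMEM97, a sterol-responsive membrane protein named after its values were seen, had −0.15 with all 4 pair differences negative (adjusted p = 0.284 from limma with pairs). SOAT2, the esterifying enzyme of intestine and liver, had 0.13 (adjusted p = 0.416 from limma with pairs). It averaged 7.32 with miR-143 and 7.19 in mock, near the array medians. MBTPS1, which makes the first cut of SREBP, had 0.01.

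The list named fatty acid genes under SREBP lay near mock, with 9 of 14 negative and a median of −0.039. It also holds genes with other roles in lipids, such as LPIN1 and TMEM41B, and SREBP control of its genes was not tested. FASN, the fatty acid synthase, had a log2 fold change of 0.10, SCD, the stearoyl-CoA desaturase, had −0.04 and ACLY, which supplies cytosolic acetyl-CoA, had −0.05. The 3 of lowest p without pairs were ELOVL5, a fatty acid elongase, at −0.10, LPIN1, a phosphatidate phosphatase, at −0.10, and TMEM41B, a lipid scramblase, at −0.12. ELOVL5 averaged 6.93 with miR-143 and 7.03 in mock, below the array medians. Over the mean of all its probe sets ELOVL5 had −0.02, LPIN1 had −0.03 and TMEM41B had −0.13. In the isoprenoid branch, which uses farnesyl and geranylgeranyl diphosphate for ubiquinone, dolichol and protein anchors, 10 of 12 were negative, with a median of −0.067. The 3 of lowest p without pairs were COQ2 of ubiquinone synthesis at 0.09, NUS1 of dolichol synthesis at −0.14 and RABGGTB, which attaches geranylgeranyl groups to Rab proteins, at −0.10. By the probe set of largest interquartile range COQ2 had −0.08 and NUS1 had −0.05. With pairs the 4 genes with an unadjusted p under 0.05 were NUS1, its partner DHDDS at −0.14, and ZMPSTE24 and ICMT, which process prenylated proteins, at −0.15 and −0.14. All 4 pair differences were negative in each, and their adjusted p ran from 0.322 to 0.483 by limma with pairs. These lists were chosen with earlier results known and were given no test of their own.

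**Figure D4:**
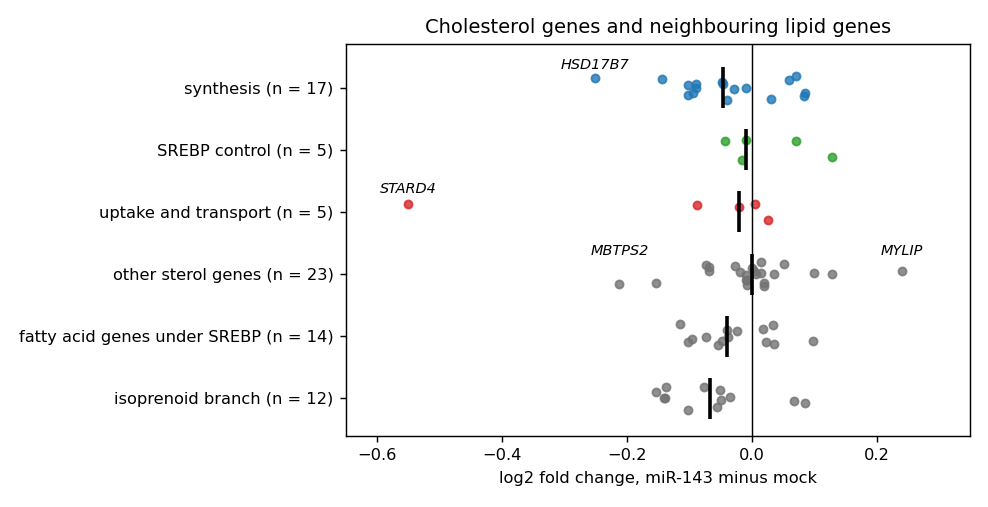
Change from mock to miR-143, in log2, of each measured gene in the 3 cholesterol lists (coloured) and of 3 neighbouring lists (grey), 1 point per gene, scattered vertically for legibility, with a black bar at each list's median. The medians run from −0.067 for the isoprenoid branch to −0.00013 for other sterol genes, and STARD4 at −0.55 lies apart from all other points.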

How the data were processed

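Arrays of 4 miR-143 and 4 mock cultures were grouped by their GEO titles. The authors deposited log2 values per probe set, made with RMA in the affy package by the submitters' processing notes (versions are not given in the sources used here), and these were used as deposited. Raw scans were not used here. Arrays carry no read depth, and precision is limited by how many there were. Of 54675 probe sets 41091 carried a single gene symbol, 1801 several, 11721 none and 62 were controls. For 41037 probe sets the current symbol was looked up through the Entrez identifier, and the brightest probe set over the 8 arrays stood for each of 19752 genes.

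Groups were compared with limma 3.58.1 in R 4.3.3 (lmFit and eBayes, two-sided), with Benjamini-Hochberg adjustment over all genes and 0.05 as the threshold. The fits were also run on simulated data, with genes drawn independently and a pair effect of equal size in every pair. These arrays differ from that, as both replicate 4 arrays stood apart, so no conclusion is drawn from the simulation. Tables and figures were made with Python 3.11.15, numpy 2.4.6, pandas 2.3.3 and matplotlib 3.10.9. The main comparison had no pairs, as the study's methods name none. By rule the replicate numbers were read as pairs where the 2 arrays of each number, each taken relative to its group mean, correlate above 0.1 across genes. The correlations were 0.11, 0.17, 0.58 and 0.81, so the rule was met, the first barely, and neither labels nor methods say what a number stands for. Replicates 1 and 2 correlated better with another number (up to 0.25 and 0.54). Across replicates 1 to 3, every miR-143 array correlated above 0.1 with every mock array. Any matching of these replicates would thus meet the rule, so it cannot show that the numbers are pairs. Alternatives changed the block, the arrays used, array weights, normalization, the choice of probe set, the filter on dim genes and the moderation of the spread.

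The members, the neighbouring lists and the tests were chosen with earlier results of these data known. Values array by array are given for members with an unadjusted p under 0.05 in either comparison or with groups that do not overlap, and for the member of lowest p in each role. In neighbouring lists the 3 genes of lowest p without pairs are named, and FASN, SCD, ACLY, MBTPS1, HSD17B7P2, TMEM97, DHDDS, ZMPSTE24 and ICMT were named after their values were seen.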

Additional observations from a re-analysis of the deposited data

Results flagged for a closer look

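Within the groups of 4 arrays, 72 groups of 36 genes were examined for an array far from the other 3, and 5 were found, where chance gives about 1 in 20. LSS had 10.08 in mock replicate 4, against 9.62 in each of the other mock arrays. NPC2 had 12.79 in miR-143 replicate 4, against 12.33 to 12.40, and 12.91 in mock replicate 4, against 12.41 to 12.48. MVD had 7.12 in mock replicate 3, against 7.01 to 7.02. SOAT1 had 9.08 in mock replicate 1, against 8.80 to 8.84. The first 3 of these lie in replicate 4, which stood apart over all genes, and its part in them was not tested.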

How the results depend on the processing

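Without pairs limma called 0 genes and 0 members, and this stayed so with each of the 8 arrays left out in turn, with the mean of all probe sets, with genes above the median level and with a trended, robust spread. With the replicate number as a block it called 123 genes lower and 33 higher, and without pairs 1, 2, 3 and 4 in turn it called 57, 68, 33 and 42 lower and 16, 11, 9 and 16 higher. It called 36 and 20 with array weights, 31 and 21 after cyclic loess, 78 and 51 with cyclic loess and the block, and 32 and 22 after quantile normalization. With the mean of all probe sets and the block it called 35 and 3. With the most variable probe set (by interquartile range) it called 1 lower gene. With every probe set tested it called 1 lower probe set without the block. Of 2 settings added after seeing the data, leaving out both replicate 4 arrays without the block gave 30 lower and 13 higher genes, and every probe set with the block gave 171 and 45. In each of these settings that made calls, 1 member was called, STARD4, except with the most variable probe set (by interquartile range) and with every probe set without the block, where 0 were. The log2 fold change of STARD4 ran from −0.61 to −0.48 over 25 alternatives, with adjusted p from 5.66e-04 to 0.795 by limma, and that of HSD17B7 from −0.30 to −0.18, with adjusted p from 0.0608 upwards. The block changed no call of a member other than STARD4. Members highest in replicate 4 of both groups fell from 20 to 7 after quantile normalization and to 7 after cyclic loess. The log2 fold change of COQ2 turned from 0.086 to −0.076 with the most variable probe set (by interquartile range), and the cause was not tested. With single arrays left out the median log2 fold change ran from −0.11 to 0.017 in synthesis, from −0.068 to 0.098 in SREBP control and from −0.15 to 0.0026 in uptake and transport.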
